A study of Mus musculus with 14 samples.

Results

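Liver RNA of mice that lack both Mdr2 and IL-6 was set against liver RNA of wild type mice, with 6 arrays of the Mdr2-KO/IL6-KO genotype and 3 arrays of the wild type, 9 of the 14 arrays of the series. All 14 arrays come from female mice aged 14 months. The wild type is labelled C57BL/6. The labels call the double knockout Mdr2-knockout/IL-6-knockout and its tissue free of tumour, and they give it no strain, so that a difference of strain and the effect of the knockouts cannot be told apart. The other 5 arrays are of Mdr2-KO liver, also free of tumour, which shares the loss of Mdr2. They entered the estimate of the spread and a second comparison. The labels do not state that the arrays come from different animals. The p-values therefore cover only the spread between these samples, which may be technical. Each gene was represented by 1 probe, the one of highest mean among probes annotated to exactly 1 gene, and all 19938 genes so covered are described.

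Abcb4 is the present symbol of Mdr2. It encodes the transporter of the hepatocyte's canalicular membrane that moves phosphatidylcholine into bile. In bile, phosphatidylcholine packs bile acids into mixed micelles. Without it the bile acids damage the epithelium of the bile ducts, and the mice develop chronic inflammation and scarring around the ducts and, late in life, liver tumours. Interleukin 6 acts on hepatocytes through its receptor and the shared subunit Il6st, which activate STAT3, and it drives the acute phase response, in which the liver raises its output of secreted defence proteins.

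The values are log2 expression, and a level below 5.49, under which 95% of 1015 olfactory receptor genes lie, was taken as background. The mean of 29.2% of the genes lies under it. The hepatocyte genes Alb and Hnf4a were near 13.1 and 11.2 in all 3 groups. Abcb4 itself read 10.37, 10.33 and 10.39 in the wild type arrays and from 8.77 to 9.24, with a median of 9.10, in the double knockout. The difference was -1.32 ± 0.11 (SE), or 2.49-fold, at an adjusted p of 4.84e-06 (limma with Benjamini-Hochberg adjustment over all genes, as for every adjusted p here). Which part of the gene was deleted, and whether the probe lies in it, was not known here. Il6 lay under the background in both groups, from 3.13 to 3.32 in wild type and from 3.13 to 4.00 in the double knockout (adjusted p = 0.284), so that the array does not check the loss of this gene.

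At an adjusted p of at most 0.05, 2450 of the 19938 genes (12.3%) differed between double knockout and wild type. In the double knockout 1388 of them were higher (6.96% of genes tested) and 1062 lower (5.33%). These shares are the background against which each group of genes is read below. Differences of at least 2-fold were seen in 148 genes that rose and 91 that fell. The arrays of the 2 groups did not overlap for 3017 genes (15.1%), of which 2061 were past the threshold. The split moved with the scaling: 1006 were higher and 1573 lower once each array was centred on its median, so that 39.0% of the called genes were higher in place of 56.7%. Genes called in each of the 9 fits that left out 1 array numbered 1054, and the genes named below are among them unless another value is given. The count over all genes was itself 1694, 1925 and 1635 without wild type array 1, 2 or 3. It ran from 2014 to 2544 without 1 double knockout array. A list count from such a fit is therefore not to be read against the 12.3%. The first principal component of the 9 arrays held 46.6% of the variance, with scores from -31.14 to -21.48 in wild type and from 9.28 to 20.72 in the double knockout. Wild type arrays 2 and 3 lay at opposite ends of the second component, at -18.86 and 18.23.

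**Figure D1:**
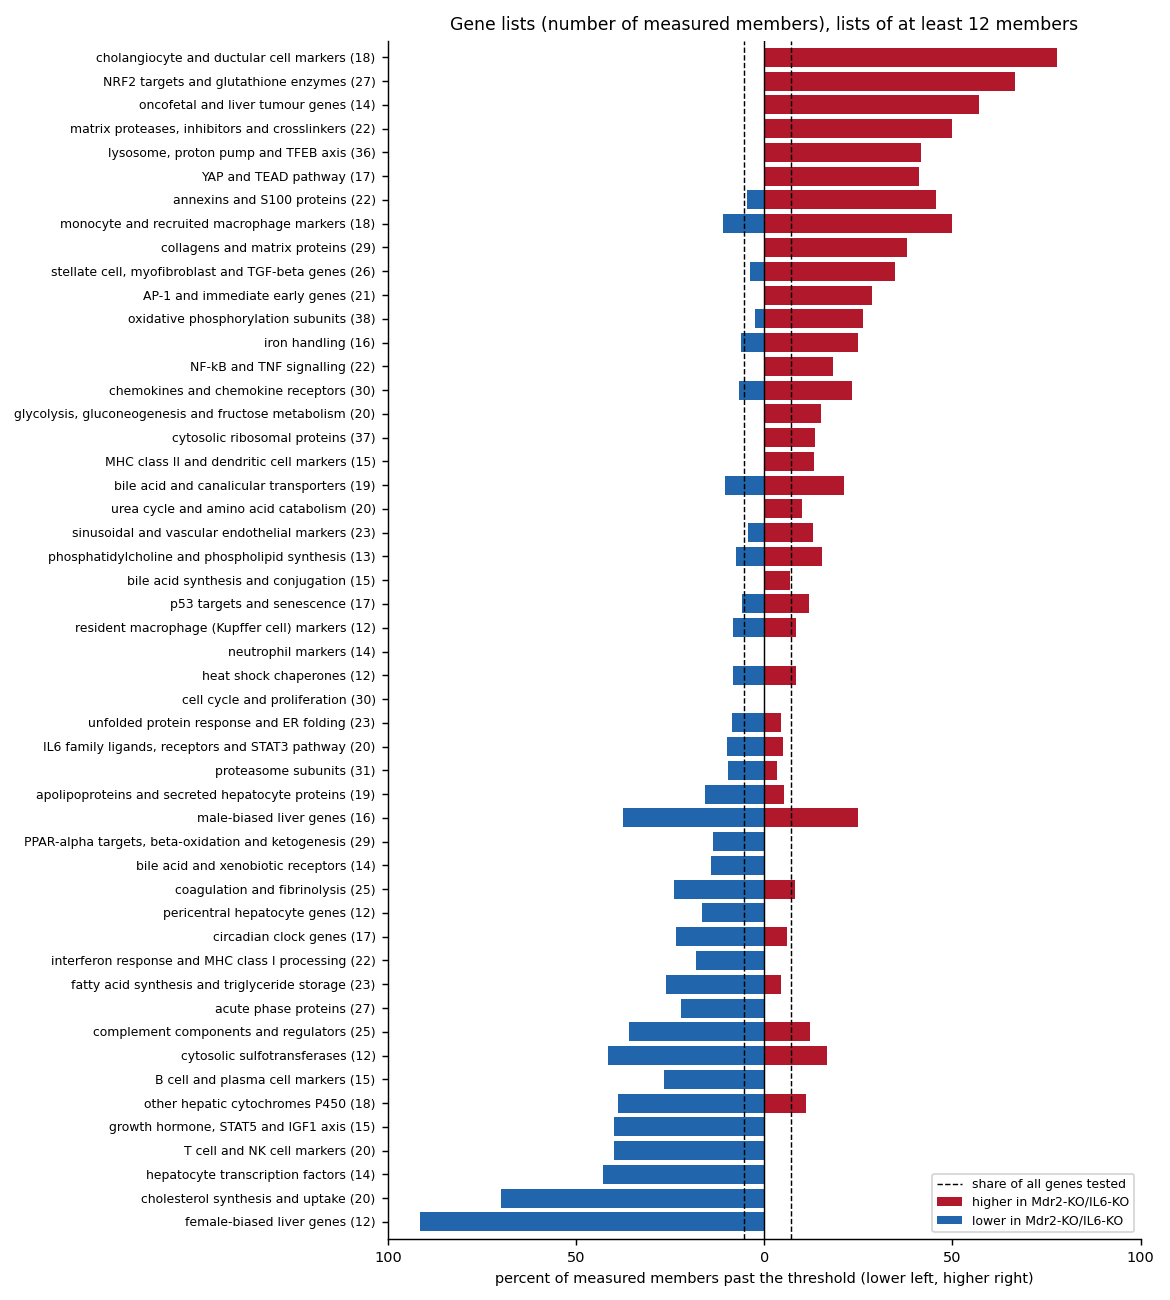
Share of the measured members of each gene list past the threshold in Mdr2-KO/IL6-KO against wild type liver, in percent. Red bars to the right are members that were higher and blue bars to the left members that were lower, and the dashed lines mark the shares over all 19938 genes, 6.96% higher and 5.33% lower. Markers of bile duct cells and targets of NRF2 stand at the top, cholesterol synthesis and female-biased liver genes at the bottom.

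Female-biased liver genes held the largest falls. In adult mouse liver, the female pattern of growth hormone release keeps a set of cytochromes P450, sulfotransferases and transporters high, and the male pattern keeps another set high. Of 12 female-biased genes measured, 11 fell and none rose, with a median difference of -2.65. Several genes named here and in the paragraphs below belong to families of near-identical genes (Cyp2b, Cyp2c, Cyp3a, Sult2a, Cyp4a12 and Mup). In these families a probe may take up RNA of a relative, so the split between relatives is uncertain.

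Sult3a1, an amine sulfotransferase, read 9.45, 6.50 and 9.85 in the wild type arrays and from 2.47 to 2.79 (median 2.61) in the double knockout. Every double knockout array of Sult3a1 lay under the background, and the wild type arrays spread over more than 3 log2 units with array 2 lowest. The fitted difference was -6.00 ± 0.86 (adjusted p = 0.000374). Cyp17a1, the steroid 17-hydroxylase and lyase, read 11.58, 10.43 and 11.48 against 6.26 to 7.25, with a median of 6.49. No knockout array of Cyp17a1 came near the wild type range, and the difference was -4.58 ± 0.59, or 23.9-fold (adjusted p = 0.000174). Slc22a26, an organic anion transporter, read 11.39, 11.04 and 11.28 against 7.50 to 8.78 (median 8.44). This gene was tight in wild type, with a difference of -2.86 ± 0.31 (adjusted p = 4.3e-05).

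Cyp3a16, a cytochrome of steroid and drug metabolism, read 10.69, 4.95 and 10.09 in wild type, and all 6 double knockout arrays lay at or under 4.22. These 6 and the second wild type array of Cyp3a16 were under the background. A1bg, a secreted glycoprotein, fell by 3.36 ± 0.61 on the log2 scale and Hao2, a hydroxyacid oxidase, by 2.20 ± 0.40. Cyp2b10, an enzyme of drug metabolism, differed by -1.89 ± 0.28. The calls of Cyp2b13 (-2.97 ± 0.82, adjusted p = 0.028), Cyp2b9 (-1.02 ± 0.30) and Cux2 (-0.78 ± 0.19), a transcription factor of female liver, were lost when single arrays were left out. For Cyp2b13 these were each wild type array and double knockout array 2, with adjusted p up to 0.0957. For Cyp2b9 they were each wild type array and double knockout arrays 2 and 5, with adjusted p up to 0.119. For Cux2 they were wild type arrays 1 and 3, at 0.0912 and 0.0583.

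Male-biased genes moved both ways, with 4 of 16 higher and 6 lower. The rises were in Cyp4a12a, Cyp4a12b, Cyp2d9 and Selenbp2. Cyp4a12b, a fatty acid hydroxylase, read 4.56, 5.02 and 4.66 in wild type, under the background, and from 7.78 to 8.33 in the double knockout, a difference of 3.29 ± 0.48 (adjusted p = 0.000471). Cyp2d9, a testosterone hydroxylase, read 7.32, 7.61 and 7.33 against 9.16 to 9.67, with a median of 9.46, and rose 4.05-fold (adjusted p = 6.19e-08). The falls included Ugt2b1, a glucuronosyltransferase (-0.95 ± 0.13), and Mup21 (-1.31 ± 0.26), a major urinary protein whose double knockout mean of 4.29 lay under the background. Mup3 read 11.39, 10.87 and 11.70 in wild type, and its 6 double knockout arrays ran from 7.12 to 10.47. The adjusted p of Mup3 was 0.0146 and rose to 0.0546 and 0.0726 without wild type array 1 or 3. Without wild type array 1 or array 3 the male-biased genes called lower numbered 2.

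Receptors and mediators of the growth hormone pathway were lower where they were called, in 6 of 15 genes with none higher. Ghr, the growth hormone receptor, read 11.73, 11.58 and 11.57 in wild type and from 10.87 to 11.29 in the double knockout (-0.49 ± 0.08, adjusted p = 0.00098). Igf1, its main secreted target, differed by -0.23 ± 0.07 (adjusted p = 0.04), a call lost without any 1 of the wild type arrays or of double knockout arrays 1 to 5. Stat5b and Socs2 were not called (adjusted p = 0.239 and 0.346). The count of 6 fell to 2 without wild type array 1 or 3 and to 3 without double knockout array 1. Ghr was the 1 member called whichever array was left out.

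Cytosolic sulfotransferases and their cofactor enzymes, among them Sult3a1 again, had 5 of 12 genes lower and 2 higher, and 4 and none without wild type array 3. Sult2a3, a hydroxysteroid sulfotransferase, read 9.53, 6.20 and 7.90 in wild type and from 3.85 to 4.34 in the double knockout, a difference of -3.75 ± 0.46 (adjusted p = 0.000109). All 6 double knockout arrays of Sult2a3 lay under the background. Papss2, which makes the sulfate donor of these enzymes, fell by 0.71 ± 0.10 on the log2 scale, and Sult1b1 by 0.79 ± 0.16. Sult1e1, the oestrogen sulfotransferase, was higher by 2.68 ± 0.65 (adjusted p = 0.0128) but not past the threshold without wild type array 3 (adjusted p = 0.0805).

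Cytochromes of the Cyp2c family split. Cyp2c39 read 9.80, 9.07 and 9.50 in wild type and from 11.95 to 12.12 in the double knockout, a rise of 2.59 ± 0.14 log2 units, or 6.02-fold (adjusted p = 5.73e-08). The 6 double knockout arrays of Cyp2c39 lay within 0.2 units of each other. Its relatives Cyp2c37 (-1.43 ± 0.24), Cyp2c54 (-1.17 ± 0.21), Cyp2c50 (-0.81 ± 0.15) and Cyp2c68 (-2.04 ± 0.18) fell. Cyp2c38, Cyp2c55 and Cyp2c70 were not called (0.004, -0.53 and 0.008). Over 18 other hepatic cytochromes, 7 were lower and 2 higher.

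**Figure D2:**
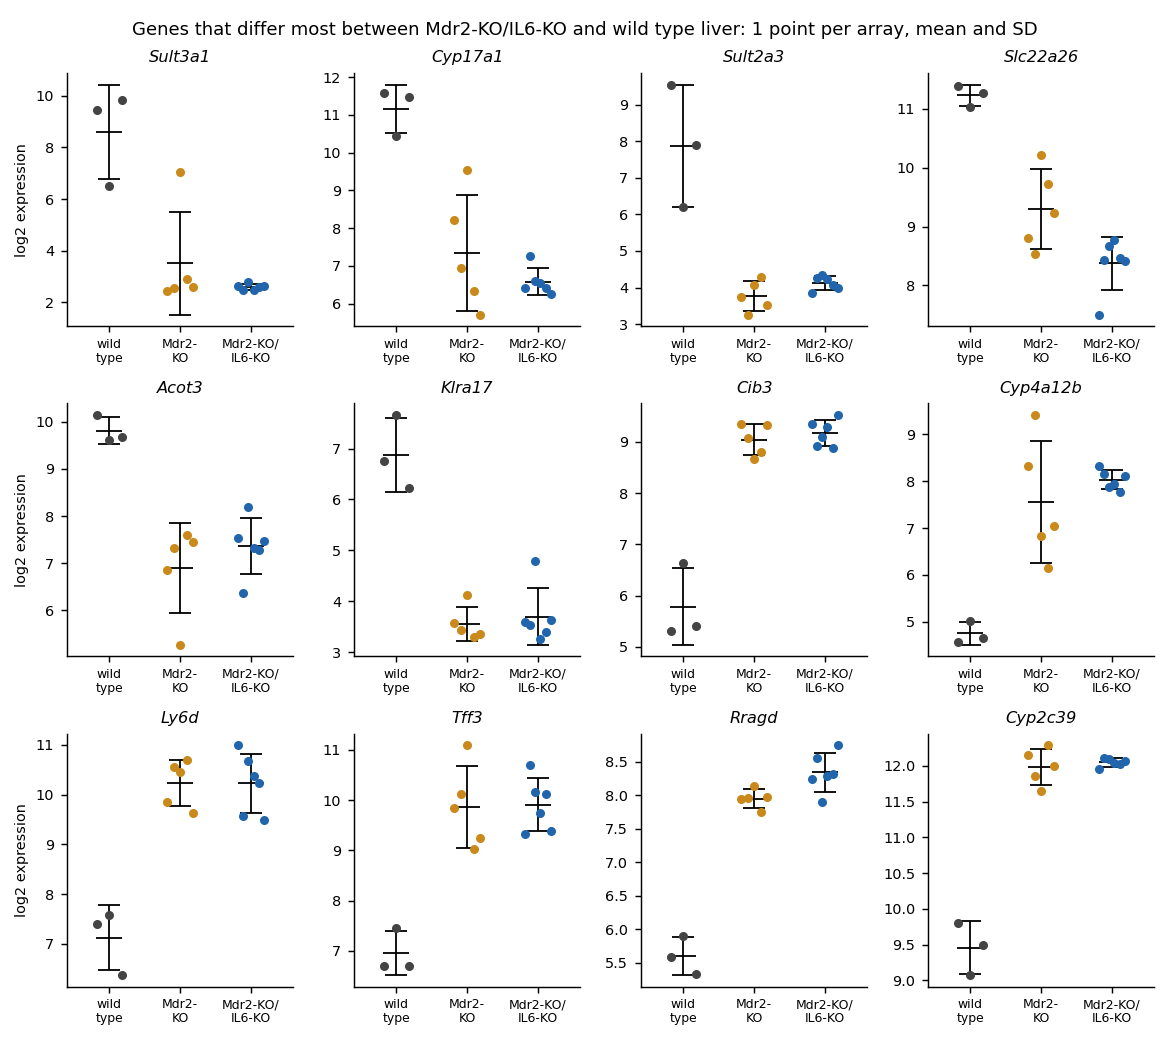
Log2 expression of 12 genes in each array of the 3 groups; every point is 1 array, and the bars give the mean and SD of the group (3, 5 and 6 arrays). In each panel the Mdr2-KO/IL6-KO arrays do not overlap the wild type arrays, for example 6.26 to 7.25 against 10.43 to 11.58 for Cyp17a1.

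Of 20 genes of cholesterol synthesis and uptake measured, 14 fell in the double knockout and none rose, with a median difference of -0.43 against -0.02 over all genes. Sterol synthesis is controlled by Srebf2, a transcription factor that cells activate when membrane cholesterol is low. Srebf2 itself was not called (-0.10 ± 0.09, adjusted p = 0.557). Without wild type array 3 the count was 9.

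Cyp51, the lanosterol demethylase, read 10.87, 10.39 and 10.65 in wild type and from 9.05 to 9.78 (median 9.48) in the double knockout. The groups did not overlap, and the difference was -1.16 ± 0.14, or 2.24-fold (adjusted p = 0.000106). Cyp51 lies 19 tested genes from Abcb4 on the same chromosome. Idi1, the isopentenyl diphosphate isomerase, read 11.35, 11.25 and 11.46 against 10.10 to 10.90, a difference of -0.92 ± 0.14. Tm7sf2, a sterol reductase, fell by 0.94 ± 0.15, Sqle, the squalene epoxidase, by 0.74 ± 0.14, and Nsdhl by 0.59 ± 0.11. Lss, Hsd17b7 and the sterol carrier Stard4 fell by 0.52, 0.54 and 0.45. Mvk, Pmvk, Mvd and Dhcr7 were not called, nor was Hmgcs1 (-0.26 ± 0.14, adjusted p = 0.285).

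Among 23 genes of fatty acid synthesis and triglyceride storage, 6 fell and 1 rose. Acacb, the mitochondrial acetyl-CoA carboxylase, read 8.79, 8.65 and 8.91 in wild type and from 7.05 to 8.20 in the double knockout (-1.23 ± 0.23, adjusted p = 0.00247). The desaturases Fads1 and Fads2 fell by 0.52 ± 0.10 and 0.56 ± 0.11 on the log2 scale, and Pnpla3 by 0.92 ± 0.14. Fasn and Scd1, the fatty acid synthase and the main stearoyl desaturase, were not called (adjusted p = 0.324 and 0.633). The higher gene, Plin4, was not called without any 1 of the wild type arrays (adjusted p = 0.158 without array 1) or without double knockout array 2, 3 or 6. Without wild type array 2 the list held 4 falls and no rise.

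PPAR-alpha, the receptor that raises fatty acid oxidation, was lower as a transcript, and so were some of its targets. Ppara read 10.88, 10.69 and 10.80 in wild type and from 9.75 to 10.12 in the double knockout, a difference of -0.79 ± 0.08 (adjusted p = 2.98e-05). Of the 29 genes on its list, 4 fell, Ppara itself among them, none rose and 25 were not called. The acyl-CoA thioesterases Acot3 and Acot4 differed by -2.45 ± 0.43 and -1.62 ± 0.27, and Acot3 is also counted among the female-biased genes above. The median difference of the list was -0.27. The count rose to 8 without double knockout array 1 and to 8 with array quality weights.

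Among 19 bile acid and canalicular transporters, 4 were higher and 2 lower. Slc51b, a subunit of the basolateral bile acid exporter, read 6.39, 7.74 and 6.19 in wild type and from 7.78 to 8.88 in the double knockout. The second wild type array of Slc51b came within 0.04 of the lowest knockout array, and the rise was 1.61 ± 0.27 (adjusted p = 0.00139). Slc10a1, the sodium-dependent uptake carrier, read 12.38, 12.37 and 12.50 against 11.71 to 12.08 and fell by 0.46 ± 0.08 on the log2 scale. Abcb1b, a drug efflux pump that lies next to Abcb4 in the genome, read 5.42, 5.77 and 5.10 against 6.57 to 6.98, a rise of 1.34 ± 0.15 (adjusted p = 4.28e-05). Abcg2, another efflux pump, rose by 0.62 ± 0.13. Abcb11, the canalicular bile salt export pump, and Abcc2 were not called (0.22 ± 0.11 and -0.06 ± 0.10).

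Bile acid synthesis had 1 call in 15 genes, a rise of 0.48 ± 0.09 in Acox2, which shortens the bile acid side chain. Cyp7a1, the rate-limiting enzyme, read 12.13, 11.66 and 11.89 in wild type and from 10.68 to 11.77 in the double knockout, a difference of -0.65 ± 0.21 that missed the threshold (adjusted p = 0.0586). Cyp8b1 differed by 0.08 ± 0.37 with wild type arrays from 7.70 to 9.85. Without wild type array 2 this list had 1 rise and 3 falls, and without double knockout array 4 or 5 it had 1 or 2 falls beside the rise. Nr1h4, the bile acid receptor FXR, read 9.95, 9.94 and 9.90 against 8.93 to 9.55 with a difference of -0.64 ± 0.11 (adjusted p = 0.00111). Nr0b2, its main target in hepatocytes, was not called (0.19 ± 0.27).

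Targets of NRF2, the transcription factor of the response to electrophiles and oxidants, and glutathione enzymes formed a list of 27 measured genes. Of these 18 were higher and none lower, with a median difference of 0.47, and 15 of the 18 were called whichever array was left out. Gpx2, a glutathione peroxidase, read 6.03, 5.97 and 6.04 in wild type and from 6.66 to 7.91 (median 7.76) in the double knockout. Its rise was 2.83-fold (adjusted p = 0.000657). Nqo1, a quinone reductase, averaged 7.25 ± 0.23 (SD, n = 3) in wild type against 8.21 to 8.77 and rose by 1.28 ± 0.16 (adjusted p = 0.00012).

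The glutathione transferases Gsta4 and Gstp1 rose by 1.34 ± 0.24 and 1.03 ± 0.09, and Gstm3 by 0.86 ± 0.13. Gstp1 read 11.05, 11.11 and 11.03 in wild type and from 11.88 to 12.34 in the double knockout. Other rises were in the epoxide hydrolase Ephx1 (0.90 ± 0.15), the sulfiredoxin Srxn1 (0.83 ± 0.12) and Pgd (0.41 ± 0.08), which supplies NADPH. Members that were not called include Hmox1, the haem oxygenase (-0.14 ± 0.23), and Gclm, a subunit of the glutathione-making ligase (0.02 ± 0.09). The core of the antioxidant response element, TGACNNNGC on either strand, was searched in RefSeq promoters (250 bases before to 50 after the start, GRCm38.p6). It is found in 7 of the 23 members that have a promoter, among them 3 of the 15 called, and in 14.0% of 27025 genes. Whether the element goes with the rises was not tested.

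Markers of cholangiocytes, the cells that line bile ducts, were higher in 14 of 18 genes measured and lower in none, with a median difference of 0.89. The summed level of these 18 genes ran from 10.56 to 11.06 (log2) in the wild type arrays and from 11.67 to 12.51 in the double knockout, without overlap. In a tissue sample, more cells of a type and more RNA per cell cannot be told apart, here and for every cell marker below.

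Tff3, a secreted trefoil peptide of mucous epithelia, read 6.71, 7.46 and 6.70 in wild type and from 9.33 to 10.70 (median 9.94) in the double knockout, a rise of 2.95 ± 0.38, or 7.75-fold (adjusted p = 0.000164). Krt19, a keratin of bile duct cells, read 5.68, 5.87 and 5.63 against 6.30 to 7.30 and rose by 1.16 ± 0.22 (adjusted p = 0.00285). Tspan8 rose by 2.18 ± 0.27 from a wild type mean of 4.84, under the background. Cd24a, a surface protein of progenitor-like and duct cells, rose by 1.88 ± 0.31, Bicc1 by 1.49 ± 0.21 and Ehf, an epithelial transcription factor, by 1.16 ± 0.24. Epcam and Krt7 missed the threshold (0.77 ± 0.30 and 0.50 ± 0.17, adjusted p = 0.118 and 0.0769). Ly6d, a small surface protein, read 7.41, 7.58 and 6.37 against 9.49 to 10.99, a rise of 3.10 ± 0.34; it stands on the list of fetal and tumour genes. Cdh1, the epithelial cadherin, rose by 2.10 ± 0.22, or 4.28-fold. Cdh1 stands on the periportal hepatocyte list, where 2 of 8 genes were higher and 6 were not called.

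Of 29 collagens and matrix proteins 11 rose and none fell, with a median difference of 0.33; the count was 6 without wild type array 1 and 7 without array 3. Lum, the collagen-binding proteoglycan lumican, read 6.95, 6.91 and 6.57 in wild type and from 8.32 to 9.12 in the double knockout, a rise of 1.89 ± 0.21 (adjusted p = 4.57e-05). Col12a1 rose by 0.91 ± 0.10 from wild type levels under the background, and Col6a3 rose by 0.77 ± 0.17. Col1a1, the main scar collagen, was higher by 0.62 ± 0.15 (adjusted p = 0.0143, and 0.071 without wild type array 1). Col3a1 was not called (0.40 ± 0.19).

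Matrix proteases and their inhibitors rose in 11 of 22 genes with none lower, and in 6 without wild type array 1 or array 2. Mmp12, the elastase of macrophages, read 5.98, 6.56 and 6.49 in wild type and from 8.66 to 9.50 in the double knockout. The groups of Mmp12 did not overlap, with a rise of 2.71 ± 0.33 (adjusted p = 0.000106). Mmp2, a gelatinase made by stellate cells, rose by 1.55 ± 0.28, its activator Mmp14 by 0.55 ± 0.07 and the inhibitor Timp2 by 1.12 ± 0.20. Adamts5, an aggrecanase, rose by 1.08 ± 0.19. Mmp7 ran from 6.30 to 9.75 in the double knockout, and its call (1.92 ± 0.53, adjusted p = 0.0257) was lost without any 1 of the wild type arrays.

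Genes of stellate cells and of the TGF-beta pathway were higher in 9 of 26 and lower in 1. The lower member was Reln (-0.47 ± 0.14, adjusted p = 0.0427), which lies 34 tested genes from Abcb4. The call of Reln did not hold in every fit that left out 1 array. The ligands Tgfb2 (1.28 ± 0.26) and Tgfb3 (1.19 ± 0.19) and the receptor Tgfbr2 (0.60 ± 0.11) rose, while Tgfb1 was not called (-0.11 ± 0.10, adjusted p = 0.524). Pdgfrb and Pdgfra, the growth factor receptors of these cells, rose by 0.83 ± 0.17 and 0.82 ± 0.12. Acta2, the actin of contractile myofibroblasts, and Des were not called (0.25 ± 0.27 and -0.10 ± 0.10).

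**Figure D3:**
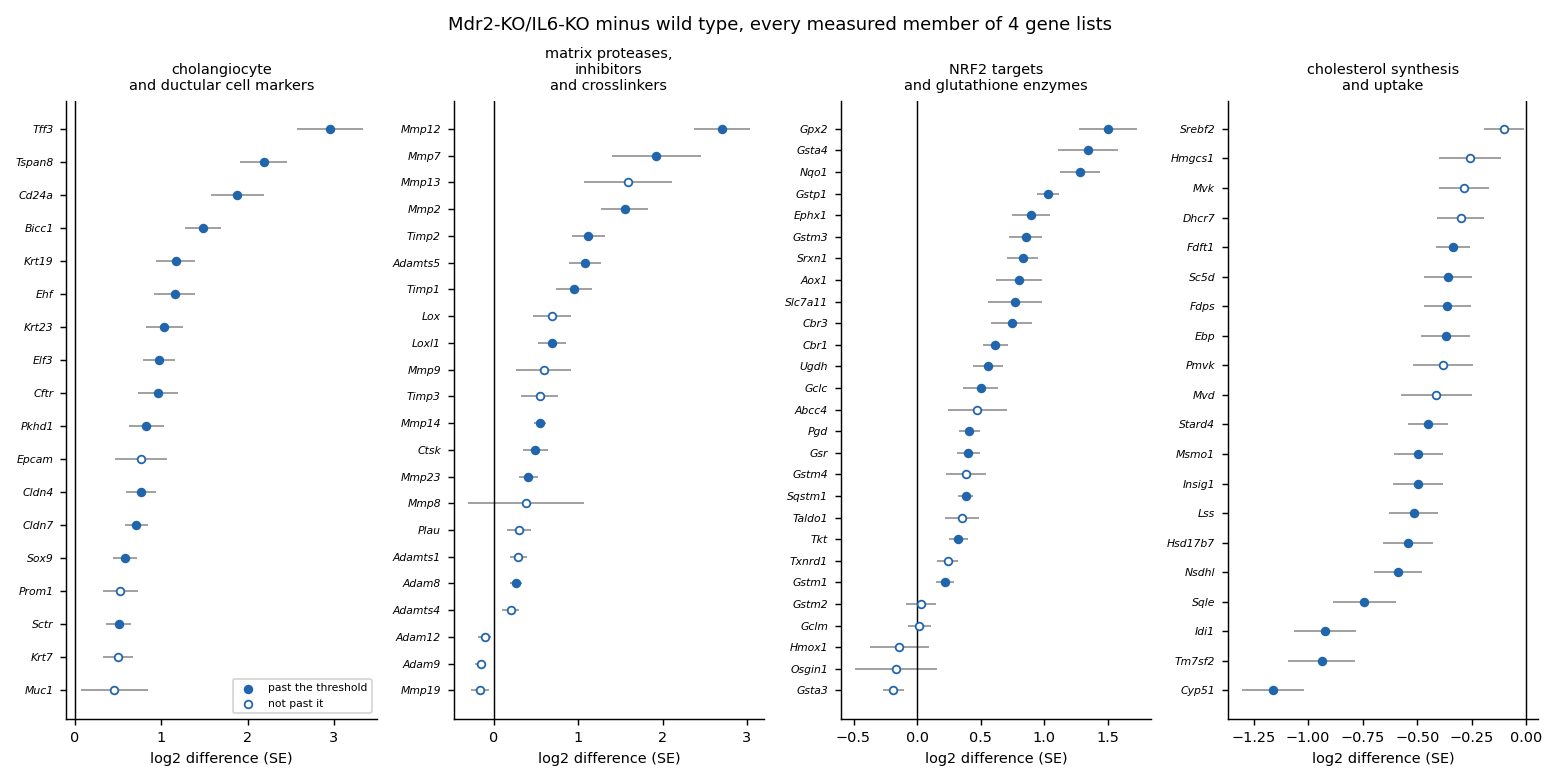
Log2 difference between Mdr2-KO/IL6-KO and wild type for every measured member of 4 gene lists, with its SE. Filled points are past the threshold and open points are not. All 18 duct markers lie to the right of 0 and all 20 cholesterol genes to the left, from -1.16 for Cyp51 to -0.10 for Srebf2.

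Markers of monocytes and recruited macrophages were higher in 9 of 18 and lower in 2, whereas resident Kupffer cell markers had 1 rise and 1 fall in 12. Without wild type array 1 the first count was 6 and 1, and the Kupffer cell fall, in Timd4, was lost without any 1 wild type array or double knockout array 4 or 6. Gpnmb, a glycoprotein of lipid-laden macrophages, read 6.26, 6.63 and 5.69 in wild type and from 7.69 to 8.62 in the double knockout, a rise of 2.06 ± 0.30 (adjusted p = 0.000471). Cd9 rose by 1.62 ± 0.12, the lipase Lpl by 1.62 ± 0.20, the chemokine receptor Cx3cr1 by 0.69 ± 0.14 and lysozyme, Lyz2, by 0.46 ± 0.10. The 2 lower members were Fcgr4, an antibody receptor (-1.57 ± 0.36, adjusted p = 0.00995), and Fabp5, a fatty acid binding protein (-1.28 ± 0.34, adjusted p = 0.0222). The call of Fcgr4, whose groups overlap, was lost without wild type array 2 (0.053) and that of Fabp5 without wild type array 1 (0.132). Clec4f, a Kupffer cell lectin, was not called (-0.12 ± 0.26). C6, which stands on the Kupffer cell list and is also a complement component, rose by 1.06 ± 0.18.

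Lymphocyte genes were lower where they were called. Of 20 markers of T cells and NK cells 8 were lower and none higher, and 2 without wild type array 2. The summed level of this list ran from 10.46 to 11.08 in wild type and from 9.98 to 10.37 in the double knockout. The mean of 8 of the 20 genes lay under the background. Icos, a costimulatory receptor, read 6.31, 6.74 and 6.33 against 5.87 to 6.00 with a difference of -0.50 ± 0.08 (adjusted p = 0.00117), and Gzma, a granule protease, fell by 0.79 ± 0.13 to levels under the background. Cd3e read 7.09, 8.08 and 7.32 in wild type, highest in array 2, against 6.38 to 7.23, and its adjusted p of 0.035 became 0.194 without that array. The call of Cd3e was also lost without wild type array 3 or double knockout array 2, 3 or 6.

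Fcrl5, a receptor of B cells, averaged 7.62 ± 0.83 (SD, n = 3) in wild type, highest in array 2 at 8.56, and 5 of the 6 double knockout arrays lay from 4.59 to 4.87. Double knockout array 3 read 7.31, inside the wild type range. Its difference of -2.40 ± 0.48 (adjusted p = 0.00386) was the largest among 15 B cell markers, 4 of which were lower. This count was 1 without wild type array 1 or 2 or double knockout array 2, and 2 without double knockout array 3 or 4. The mean of 6 of the 15 genes lay under the background. The summed level of this list ran from 11.02 to 11.50 in wild type and from 10.94 to 11.24 in the double knockout, with overlap. Jchain, on the same list, was not called (1.10). Klra17, a lectin-like receptor of the Ly49 family, is on neither of these lymphocyte lists. Klra17 fell by 3.18 ± 0.32 from 6.75, 7.66 and 6.22 in wild type to at most 4.80 in the double knockout, under the background.

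Neutrophil markers had no call in limma among 14 genes, and 0 were past an unadjusted p of 0.05. Their summed level ran from 9.61 to 9.74 in wild type and from 9.58 to 11.74 in the double knockout. Interferon response genes were lower in 4 of 22 and higher in none, and in 2 without wild type array 1 or 2. Among them Gbp3, a guanylate-binding protein, fell by 1.02 ± 0.22 on the log2 scale and Irf9, a subunit of the interferon-activated factor, by 0.47 ± 0.07. Chemokines and their receptors moved both ways, with 7 of 30 higher and 2 lower, and 3 higher without wild type array 1. Cxcl16 rose by 0.72 ± 0.15, Cx3cl1, the ligand of Cx3cr1, by 0.60 ± 0.09 and Ccr1 by 0.86 ± 0.20, the last with a mean of 3.82 in wild type and 4.69 in the double knockout, both under the background. Ccl2, which draws monocytes, ran from 7.80 to 9.36 in the double knockout against 7.13 to 7.63 in wild type and missed the threshold (adjusted p = 0.0698).

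YAP is the growth regulator of the Hippo pathway and binds DNA through TEAD factors. A list was made of its targets, the TEAD factors and pathway components, Yap1 and Tead1 among them. Of its 17 genes, 7 were higher and none lower, with a median difference of 0.21. The count was 5 without wild type array 1 or 3 or double knockout array 1, 2 or 4. In each of these fits the call of Tead1 (0.43) was lost, with adjusted p up to 0.225. Ankrd1 read 5.49, 5.67 and 5.52 in wild type and from 6.63 to 7.78 in the double knockout, a rise of 1.52 ± 0.25 (adjusted p = 0.00102). Ccn1, a secreted matrix protein, read 7.25, 7.28 and 7.47 against 8.48 to 9.14 and rose by 1.44 ± 0.23 (adjusted p = 0.000792). Ajuba, a scaffold protein of cell junctions, read 6.23, 6.25 and 6.42 against 7.27 to 8.17 and rose by 1.35 ± 0.14 (adjusted p = 3.15e-05). In each of the 3 the lowest double knockout array was at least 0.8 above the highest wild type array. Yap1 itself was not called (0.05 ± 0.06), and Ccn2, another target, missed the threshold (0.86 ± 0.31, adjusted p = 0.0818).

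The promoters of the 3 genes are shown because each holds the core TEAD motif, GGAATG, which was searched on both strands and stands in capitals (as CATTCC where it lies on the other strand). Each runs 300 bases on the minus strand of GRCm38.p6, from 250 bases before to 50 after the start, 5′ to 3′, as RefSeq gives it: chr3:145649936-145650235 for Ccn1 with 1 match, chr19:36119795-36120094 for Ankrd1 with 2 matches and chr14:54577612-54577911 for Ajuba with 2 matches.
Ccn1: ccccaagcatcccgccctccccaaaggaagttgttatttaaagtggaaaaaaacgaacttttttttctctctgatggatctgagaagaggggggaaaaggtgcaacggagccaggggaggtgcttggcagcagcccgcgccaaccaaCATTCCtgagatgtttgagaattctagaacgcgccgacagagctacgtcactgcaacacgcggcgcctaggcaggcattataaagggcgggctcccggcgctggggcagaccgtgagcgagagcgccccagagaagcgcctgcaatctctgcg
Ankrd1: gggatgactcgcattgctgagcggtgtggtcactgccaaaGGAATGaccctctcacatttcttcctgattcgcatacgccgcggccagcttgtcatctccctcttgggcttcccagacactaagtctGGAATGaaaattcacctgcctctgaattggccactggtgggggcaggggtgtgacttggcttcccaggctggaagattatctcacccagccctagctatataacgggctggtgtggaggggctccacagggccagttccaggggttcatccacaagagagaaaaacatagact
Ajuba: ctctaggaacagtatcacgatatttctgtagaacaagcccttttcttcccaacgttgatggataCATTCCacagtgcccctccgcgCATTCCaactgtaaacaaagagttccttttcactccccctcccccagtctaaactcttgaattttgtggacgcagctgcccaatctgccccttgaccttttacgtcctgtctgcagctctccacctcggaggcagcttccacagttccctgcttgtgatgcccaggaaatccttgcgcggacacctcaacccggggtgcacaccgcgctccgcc
Of the 13 listed genes with a promoter in the table, 10 hold the motif, among them 5 of the 6 called, and 16.6% of 27025 genes hold it. Because the list was made of YAP targets, TEAD factors and pathway components, its share is a property of the list, not a result of these arrays. Whether the motif goes with the rises was not tested.

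Annexins and their S100 partners, which bind membranes in the presence of calcium, were higher in 10 of 22 and lower in 1, and in 6 and none without wild type array 3. Anxa2 read 7.64, 7.85 and 6.93 in wild type and from 9.01 to 9.45 in the double knockout, a rise of 1.76 ± 0.19 (adjusted p = 3.74e-05). Anxa5 rose by 1.03 ± 0.11 and S100a11 by 1.09 ± 0.13. Of 14 genes known from fetal liver or liver tumours 8 rose and none fell, 5 without wild type array 1 and 4 without array 3. Igf2, the fetal growth factor, read 6.41, 6.45 and 6.34 in wild type and from 7.17 to 9.04 in the double knockout. The spread of Igf2 within the double knockout (SD 0.77) was wide, and the rise was 1.87 ± 0.40 (adjusted p = 0.00574). Sox4 rose by 0.76 ± 0.12, and Afp, the fetal albumin relative, was not called (-0.01 ± 0.09).

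Among 36 genes of lysosomes and their control 15 rose and none fell, with a median difference of 0.18, and 9 rose without wild type array 3. Rragd, a GTPase that ties amino acid supply at the lysosome to mTORC1, had the largest difference of the list, with Gusb next. Rragd read 5.59, 5.90 and 5.33 in wild type and from 7.89 to 8.74 in the double knockout, a rise of 2.74 ± 0.15, or 6.66-fold (adjusted p = 6.19e-08). The hydrolases Gusb, Ctsd and Hexa rose by 0.53 ± 0.10, 0.47 ± 0.10 and 0.42 ± 0.09. Tfeb, the transcription factor of lysosomal genes, was not called (0.03 ± 0.06).

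Rises past 2 log2 units also occurred outside the lists. Cib3, a calcium-binding protein, read 5.31, 6.64 and 5.40 in wild type and from 8.88 to 9.53 in the double knockout, a rise of 3.40 ± 0.25 (adjusted p = 9.2e-07). Folh1, a folate hydrolase of epithelia, rose by 2.88 ± 0.35, Elovl7, a fatty acid elongase, by 2.70 ± 0.22 and Defb1, a secreted defensin, by 2.68 ± 0.25. Pls1, an actin-bundling protein of brush borders, had the smallest adjusted p of these, 1.48e-08, at 5.68, 6.00 and 5.56 against 7.67 to 8.12. Gipc2 rose by 2.32 ± 0.17 and Mtnr1a, a melatonin receptor, by 2.23 ± 0.29. Falls outside the lists included Eci3, a fatty acid isomerase (-2.80 ± 0.38), Mmd2 (-2.57 ± 0.41) and Dmrta1 (-1.86 ± 0.15). All double knockout arrays of Eci3 and Dmrta1, and all wild type arrays of Folh1 and Elovl7, lay under the background.

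None of 30 genes of the cell cycle was called. At an unadjusted p of 0.05, 0 were higher and 1 lower in limma, and 1 was called lower without wild type array 3. Mki67, a marker of cycling cells, ran from 6.64 to 7.97 in wild type and from 6.74 to 8.04 in the double knockout. NF-kB genes were higher in 4 of 22, with Nfkb2 at 7.29, 7.38 and 7.31 in wild type against 7.83 to 8.04 (0.60 ± 0.07, adjusted p = 4.3e-05) and Tnfrsf12a, the receptor of the cytokine TWEAK, higher by 0.98 ± 0.21. Immediate early genes were higher in 6 of 21, but in 2, 1 and 3 without wild type array 1, wild type array 3 or double knockout array 6; Klf6 rose by 0.87 ± 0.15. Apolipoproteins had 1 rise, in Apoa4 (1.46 ± 0.29), and 3 falls in 19, among them Apom (-1.04 ± 0.15).

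Acute phase proteins were lower in 6 of 27 genes and higher in none, with a median difference of -0.27. With array quality weights 11 were lower and 1 higher, and without wild type array 2, 4 were lower and 1 higher. Saa3, an extrahepatic and macrophage form of serum amyloid A, read 7.89, 7.43 and 7.20 in wild type and from 5.97 to 7.02 in the double knockout, a fall of 1.09 ± 0.21 (adjusted p = 0.00284). Saa4 fell by 0.74 ± 0.17, Itih4 by 0.48 ± 0.09 and Orm1 by 0.45 ± 0.10 on the log2 scale. Saa1 and Saa2, the strongly inducible forms, were not called: Saa1 read 7.91, 7.22 and 5.59 in wild type against 4.91 to 6.05 (adjusted p = 0.266), and the third wild type array lay within the double knockout range. Hp, haptoglobin, was not called (0.18 ± 0.09), nor was Hamp, hepcidin, where wild type array 1 alone read 6.53 and arrays 2 and 3 read 12.04 and 11.80.

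Among 20 genes of the IL-6 family of ligands, their receptors and the STAT3 pathway, 3 were called, 1 higher and 2 lower. Over all genes the share called was 12.3%. Lifr, the receptor of leukaemia inhibitory factor that pairs with Il6st, read 11.33, 10.13 and 10.83 in wild type and from 9.22 to 9.65 in the double knockout, a fall of 1.27 ± 0.18 (adjusted p = 0.000284). Clcf1, a cytokine of the same family, rose by 0.64 ± 0.13. Stat3 differed by -0.48 ± 0.12 (adjusted p = 0.0157, and 0.0685 without wild type array 1). Il6ra, Il6st and Socs3, the feedback inhibitor induced by STAT3, were not called (-0.35 ± 0.17, 0.15 ± 0.06 and -0.00 ± 0.20).

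Of 25 complement genes, 9 were lower and 3 higher, and 4 were lower without wild type array 1. The lower ones were hepatocyte products such as Mbl2, mannose-binding lectin (-0.93 ± 0.19), Cfi (-0.42 ± 0.09), Masp2 (-0.40 ± 0.07) and C8g (-0.36 ± 0.08). The receptors C5ar1 and C3ar1, which are carried by myeloid cells, rose by 1.03 ± 0.11 and 0.90 ± 0.15. In coagulation 6 of 25 were lower and 2 higher, or 3 and 1 without wild type array 2 and 4 and 1 without double knockout array 1 or 2. F7 fell by 0.73 ± 0.15 and F9 by 0.38 ± 0.08 on the log2 scale, while Plat, the tissue plasminogen activator, rose by 1.13 ± 0.18.

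The double knockout was also set against Mdr2-KO, with which it shares the loss of Mdr2 and every array of its own with the comparison above. Here 1746 genes differed (8.76%), 1005 higher in the double knockout (5.04%) and 741 lower (3.72%). This count was less stable: it was 754, 932 and 999 without Mdr2-KO array 1, 3 or 4 and 1055 and 1045 without double knockout array 4 or 5. Cyp17a1 had a mean of 6.59 in the double knockout and of 7.35 in Mdr2-KO, whose arrays ran from 5.71 to 9.54 (adjusted p = 0.322). Means were 9.91 and 9.87 for Tff3 (adjusted p = 0.946), 12.05 and 11.99 for Cyp2c39 (0.767) and 9.47 and 9.70 for Cyp51 (0.219). A p that misses the threshold does not show that they are equal.

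Secreted hepatocyte proteins were among the genes that differed from both. Fgl1, a fibrinogen-like protein that is induced in the acute phase, read 12.28, 11.85 and 11.70 in wild type, 11.43, 11.48, 12.24, 11.39 and 11.16 in Mdr2-KO and from 9.86 to 10.73 in the double knockout. All double knockout arrays of Fgl1 were under all others, with a difference of -1.57 ± 0.21 from wild type and of -1.17 ± 0.18 from Mdr2-KO (adjusted p = 0.00225, and 0.00326 without Mdr2-KO array 3). Prg4, lubricin, read 9.90, 10.07, 11.09, 9.78 and 9.75 in Mdr2-KO and from 8.94 to 9.31 in the double knockout, with differences of -1.01 ± 0.19 from Mdr2-KO (adjusted p = 0.00643) and -1.06 ± 0.22 from wild type.

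Acute phase proteins were lower than in Mdr2-KO in 10 of 27 genes and higher in none, 8 without Mdr2-KO array 3 and 6 without double knockout array 2. Saa3 differed from Mdr2-KO by -0.98 ± 0.18 (adjusted p = 0.00484), Itih4 by -0.35 ± 0.08 and Orm2 by -1.20 ± 0.28. Mdr2-KO array 3 was the highest of its group for Fgl1, Prg4, Saa3, Itih4 and Orm2, and Orm2 there read 12.84 against 10.89 to 11.36 in the other Mdr2-KO arrays. The adjusted p of Orm2 against Mdr2-KO was 0.0174 without that array, while its call against wild type was lost without wild type array 1 or 2 (0.0879 and 0.0715). F9 differed by -0.36 ± 0.07 (adjusted p = 0.00458), with wild type and Mdr2-KO means of 10.65 and 10.64 and a double knockout mean of 10.28.

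Lin7a, a scaffold protein of cell polarity, read from 7.16 to 8.29 in the double knockout against 9.34, 9.18 and 9.18 in wild type, with a Mdr2-KO mean of 8.69 (-0.94 ± 0.17 from Mdr2-KO, adjusted p = 0.00447). Cap2, an actin regulator, and Serpinb6a, a protease inhibitor, were chosen after their values were seen. Cap2 was higher than wild type by 1.64 ± 0.17 and than Mdr2-KO by 0.91 ± 0.14, and Serpinb6a by 1.05 ± 0.12 and 0.89 ± 0.10. For both genes all double knockout arrays were above all others. Igf2 was higher than in Mdr2-KO by 1.34 ± 0.34 (adjusted p = 0.0258), a call lost without Mdr2-KO array 4 (adjusted p = 0.0691) or double knockout array 2 or 4. Mup3 differed from Mdr2-KO by -1.62 ± 0.46 (adjusted p = 0.0405) and was not called without Mdr2-KO array 3 (adjusted p = 0.0871) or any other Mdr2-KO array, or without double knockout array 1 or 6.

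**Figure D4:**
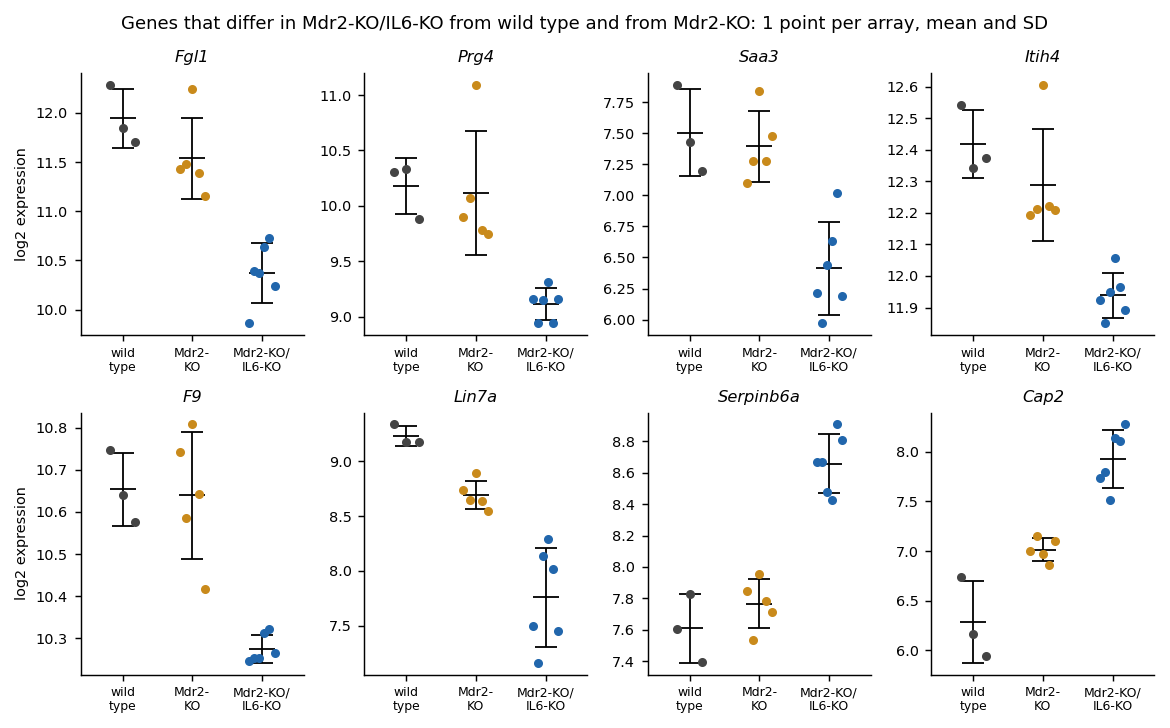
Log2 expression of 8 genes that differ in Mdr2-KO/IL6-KO both from wild type and from Mdr2-KO, 1 point per array with the mean and SD of each group. The double knockout arrays lie under both other groups in the first 6 panels and above them for Serpinb6a and Cap2; for Fgl1 they run from 9.86 to 10.73 against a lowest value of 11.16 elsewhere.

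Small noncoding RNAs on the array are mostly small nucleolar RNAs, which guide the modification of ribosomal RNA. Of 71 such genes, 30 were higher in the double knockout than in wild type and none lower, with a median difference of 0.35, and 13 were higher without wild type array 3. Against Mdr2-KO, 40 were lower and none higher, with a median of -0.44 and 35 to 41 lower when any 1 array was left out. In Mdr2-KO against wild type, where 8.89% of all genes were higher, 51 were higher and 1 lower, with a median of 0.90. The 3 comparisons share arrays with each other.

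Genes that flank a targeted gene can carry DNA of the strain in which the targeting was done. Abcb4 and Il6 both lie on chromosome 5. Of the 79 tested genes within 50 places of Abcb4 in RefSeq order, 18 were called (22.8%), 5 higher and 13 lower, and of the 100 within 50 places of Il6, 11 were called, 8 higher and 3 lower. The windows share genes, and over both together 26 of 171 genes were called (15.2%) beside 12.3% of all genes. Without wild type array 3 the count was 15, and over all genes it was 1635 in place of 2450. Abhd1, 23 genes from Il6, read 7.40, 7.16 and 7.78 in wild type and from 9.33 to 9.66 in the double knockout, the largest change in either window, at 2.03 ± 0.12 (adjusted p = 7.66e-08). Its mean in Mdr2-KO, whose label names no change in IL-6, was 9.64. Klhl7, which lies in both windows, fell by 0.80 ± 0.09 on the log2 scale, and Cldn12, 16 genes from Abcb4, by 0.44 ± 0.07. Abcb1b is the immediate neighbour of Abcb4. Whether any of these differences follows flanking DNA was not tested.

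**Figure D5:**
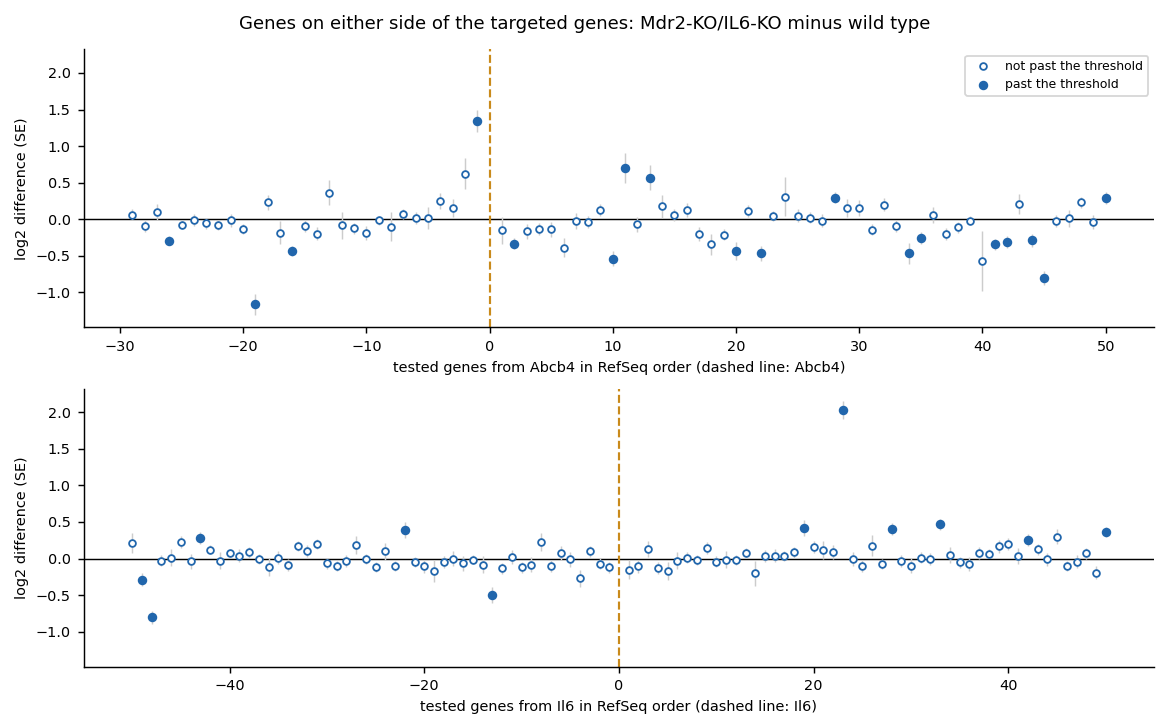
Log2 difference between Mdr2-KO/IL6-KO and wild type, with its SE, for tested genes on each side of Abcb4 (top) and Il6 (bottom), by their place in RefSeq gene order. Filled points are past the threshold; the highest points are Abcb1b beside Abcb4 (1.34) and Abhd1 at 23 genes from Il6 (2.03).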

How the data were processed

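Total RNA from liver was hybridised as biotinylated cRNA to Affymetrix arrays, per the labels' protocols. The deposited values are on a log2 scale. The submitters' processing notes name Partek and RMA for them, and the sources used here give neither a version nor the genome build behind the probes. RMA corrects background, normalises quantiles and summarises probes. No scan date or batch is in the labels. Array medians lay between 6.15 and 6.24, and arrays of a group correlated between 0.9886 and 0.9959 over genes.

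Of 35557 probes, 23410 have a gene name, 21789 of them 1 gene, and 21698 of these were matched by gene identifier to RefSeq (GRCm38.p6). Probes with several genes (1621) or none (12147) were left out. The probe of highest mean was kept for the 999 genes with more than 1, with no filter on dim genes. All 14 arrays entered 1 linear model with a mean for each of the 3 groups, in limma 3.58.1 (R 4.3.3) with empirical Bayes moderation and 2-sided moderated tests, adjusted by Benjamini-Hochberg over the 19938 genes. Standard errors are the moderated ones. Python 3.11.15 and matplotlib 3.10.9 made the tables and plots. On simulated data with these group sizes and 19938 genes the fit recovered 76% of seeded changes of 0.5 log2 units and 99% of changes of 1, with 9 false calls. The simulation drew normal values independently for each gene and changed 100 genes at each size. These rates therefore need not hold for the real arrays, where genes vary together and more of them were called. The number of arrays, 3 and 6, limits the precision.

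The genotype, the 55 gene lists (1120 genes, 1017 measured by exact symbol; other members are not analysed here) and the tests were chosen with earlier results of these data known, so counts over lists are descriptions. The rule for named genes took Abcb4, Il6, the 20 largest called rises and falls with no overlap between the groups' arrays, up to 5 members per list with calls that hold without each array first, and the 12 largest differences from Mdr2-KO; genes named beyond it, among them uncalled members with a central role in a list, were chosen after their values were seen, and the text shows a part. Promoter sequences are RefSeq's.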

Additional observations from a re-analysis of the deposited data

Results flagged for a closer look

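Of the genes given by name, 194 were checked for outlying arrays. In 10 of these 194, 1 double knockout array stood apart from the other 5 of its group, by Dixon's criterion for 6 samples. Chance meets this criterion in about 1 of 20 groups, and 10 of 194 is near that share. Array 3 read 7.31 for Fcrl5, where the others ran from 4.59 to 4.87, and 4.80 for Klra17, where they ran from 3.25 to 3.64. Array 2 read 7.25 for Cyp17a1 against 6.26 to 6.60 in the others, and 8.66 for Mbl2 against 9.52 to 9.87. Array 1 was low for the hepatocyte transporters Slc10a1, at 11.71 against 11.97 to 12.08, and Slc22a26, at 7.50 against 8.42 to 8.78, and for the epithelial marker Epcam, at 6.41 against 7.53 to 7.82. Array 4 read 9.79 for Cyp2b13, where the others ran from 6.37 to 7.31. Array 5 read 10.77 for Gsta4 against 11.11 to 11.28, and array 6 read 8.05 for Tgfb2 against 6.81 to 7.19.

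Of 13768 probes that carry no gene name or several, which no count of genes above uses, 692 (5.03%) were past the threshold in the double knockout against wild type, 385 higher and 307 lower.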

How the results depend on the processing

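A fold change of at least 1.5 as a further condition left 748 genes for the double knockout against wild type, 150 against Mdr2-KO, 5 near the targeted genes, 174 members of the gene lists in place of 312 and, for Mdr2-KO against wild type, 799 in place of 4189. When each array in turn was left out, these counts ran from 1635 to 2544, from 754 to 1978, from 15 to 25, from 206 to 308 and from 2140 to 4507. Quantile normalization, median centring, leaving out the dimmest genes, the mean of a gene's probes, trend and robust moderation, array quality weights and a fit of the 2 groups alone kept each of the 5 counts within 1.5 times. The alternatives for the lists and for Mdr2-KO against wild type were chosen after seeing the data. The alternatives were followed for 154 of the called genes named. Of these, 138 stayed past the threshold in the same direction under every alternative other than the fold condition, 16 lost the call at least once and 0 changed direction. Centring turned the medians of the IL-6 family and STAT3 list (0.01 to -0.04), bile acid transporters (0.02 to -0.03), apolipoproteins (0.01 to -0.04) and urea cycle (0.00 to -0.04). Quantile normalization turned that of the unfolded protein response (-0.03 to 0.04). The cause of these shifts was not tested. No paired analysis was possible because the labels give the groups no shared replicate numbers. Signal near the background limits the 103 called genes that lay under it in both groups.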
